A study of Rattus norvegicus with 6 samples.

Results

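The genes described here are 10 inhibitors of MAP kinase signalling that the cascade itself induces: the phosphatase genes Dusp1, Dusp2, Dusp4, Dusp5 and Dusp6, the Sprouty genes Spry2 and Spry4, the Sprouty-related genes Spred1 and Spred2, and Phlda1. They were picked by symbol, 10 of the 18286 genes of the deposited table, with the DHC and control values of these libraries in view. Their differences between the groups are therefore given as a description, with no p-value. The RNA-seq libraries come from RBL-2H3, a basophilic leukemia line of the rat that serves as a mast cell model, and the study asked whether dihydrocoumarin (DHC), a lactone of sweet clover, inhibits activation through IgE. There were 3 libraries of cells treated with DHC and 3 control libraries whose treatment is labelled none. All 6 carry the same protocol text, sensitization with 50 ng/ml of IgE against dinitrophenyl over 12 h and then stimulation by the antigen DNP-HSA at 100 ng/ml for 4 h. The labels do not say separately whether the control cells received IgE and antigen, and the dose and duration of DHC are not in them. Whether replicate libraries stem from separate cultures is not stated either, so p-values reflect variation among libraries that could be technical.

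MAP kinases such as ERK, JNK and p38 are switched on by phosphorylation after the IgE receptor of mast cells is crosslinked, and they drive cytokine and early response genes. The same signal induces its own brakes. DUSP proteins of the MAP kinase phosphatase class remove the activating phosphates from the kinases. Sprouty and SPRED proteins act higher up, on the way from receptors through RAS to the RAF kinases. PHLDA1 is a pleckstrin homology-like protein whose transcript is widely used, with DUSP4, DUSP6, SPRY2 and SPRY4, as a readout of ERK activity.

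The DHC libraries held between 29190987 and 31299551 reads assigned to genes, and the control libraries between 29084976 and 34170922. Reads of mitochondrial genes made up 4.00% ± 0.127 of the DHC libraries and 3.44% ± 0.0956 of the control libraries (SD, n = 3 each, exact two-sided permutation p = 0.1, the smallest that 3 against 3 can give). The label of a mast cell line was checked with 13 marker genes, of which 11 were in the table and 9 had a mean of at least 1 RPKM (reads per kilobase of exon, scaled to the library total). Fcer1a, the IgE-binding chain, averaged 109.8 RPKM in DHC and 106.7 RPKM in control libraries, whereas Tpsb2, a tryptase gene, had reads in only 1 of the 6 libraries. The summed level of the mast cell markers ranged from 713.2 to 741.3 RPKM in DHC libraries and from 1028 to 1059 RPKM in control libraries, where 4 fell and 1 rose. Most of the difference in the sum was Gata2, at 69.9 RPKM in DHC and 344.6 RPKM in control libraries. The others that fell were the receptor genes Kit and Il1rl1, and Hdc. Kit was at 64.4 RPKM in DHC and 114.7 RPKM in control libraries (limma adjusted p = 0.000108). Il1rl1 was at 14.9 and 48.5 RPKM (2.85e-06), and Hdc at 38.2 and 47.3 RPKM (0.0183), in the same order. Ms4a2, the beta chain of the IgE receptor, rose to 368.5 RPKM in DHC libraries, against 320.9 RPKM in control libraries (limma adjusted p = 0.0166). Of 18 markers of other cells, 11 were in the table and 3 passed the filter, with summed levels of 55.6 to 57.7 RPKM in DHC libraries and 45.4 to 53.1 RPKM in control libraries. Most of that sum was the T cell gene Cd3e, at 41.8 RPKM in DHC and 34.6 RPKM in control libraries, while Cd3d, another chain of the same complex, stayed at or below 0.0950 RPKM in every library. The part of these differences in the results below was not tested. Fewer cells expressing a gene and less RNA per cell cannot be told apart in such libraries.

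The promoters of 9 of the 10 genes, all but Dusp4, were found in the RefSeq table for the rat build GRCr8. Spry2 had 2 start sites, which gave 10 windows of the 250 bases before a start. They were searched on both strands for an AP-1 element (TGACTCA), a cyclic AMP response element (TGACGTCA), an ETS element (CCGGAA), the GATA element (AGATAA) and the CArG box bound by serum response factor. These letters stood in 4.05%, 1.59%, 12.6%, 10.3% and 1.5% of all 33469 promoter windows of that length, in the order given. The 4 windows below are shown because they belong to genes that were lower with DHC in different degree (Dusp6, Phlda1, Dusp1) and to the gene whose values were higher with DHC (Dusp5). Capitals mark the matches.
Dusp6 promoter (GRCr8, chr7:35979354-35979603, plus strand): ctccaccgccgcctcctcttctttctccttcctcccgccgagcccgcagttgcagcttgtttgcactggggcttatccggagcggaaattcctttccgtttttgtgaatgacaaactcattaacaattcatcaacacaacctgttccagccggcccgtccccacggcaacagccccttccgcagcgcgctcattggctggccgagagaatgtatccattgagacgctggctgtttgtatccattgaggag
Phlda1 promoter (GRCr8, chr7:48853440-48853689, plus strand): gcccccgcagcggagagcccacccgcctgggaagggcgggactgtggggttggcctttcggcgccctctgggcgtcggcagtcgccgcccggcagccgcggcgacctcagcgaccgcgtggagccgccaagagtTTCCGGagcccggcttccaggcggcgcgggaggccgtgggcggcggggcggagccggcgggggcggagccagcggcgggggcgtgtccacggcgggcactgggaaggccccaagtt
Dusp1 promoter (GRCr8, chr10:17184603-17184852, plus strand): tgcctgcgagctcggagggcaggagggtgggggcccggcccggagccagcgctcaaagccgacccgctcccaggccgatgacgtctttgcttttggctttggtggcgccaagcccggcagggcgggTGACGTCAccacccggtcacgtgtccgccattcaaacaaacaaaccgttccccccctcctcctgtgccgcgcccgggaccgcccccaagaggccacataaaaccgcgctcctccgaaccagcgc
Dusp5 promoter (GRCr8, chr1:262543524-262543773, plus strand): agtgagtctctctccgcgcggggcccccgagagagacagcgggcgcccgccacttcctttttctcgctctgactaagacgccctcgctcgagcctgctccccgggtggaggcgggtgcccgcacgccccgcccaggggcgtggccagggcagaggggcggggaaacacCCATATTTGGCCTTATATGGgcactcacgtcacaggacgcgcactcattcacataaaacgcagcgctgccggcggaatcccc
Dusp5 had a pair of abutting CArG boxes, from position −82 to −63 before the start, and no other window of the group held one. Dusp1 had a palindromic cyclic AMP response element from −124 to −117, again alone in the group. ETS elements stood in the windows of Phlda1 (−116 to −111), Spry4 and 1 of the starts of Spry2. No AP-1 or GATA element was in any of the 10 windows, and the windows of Dusp2, Dusp6, Spred1, Spred2 and the other start of Spry2 held none of the 5 motifs. These are matches of letters, not sites shown to be bound.

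In 6 genes of the group, those whose 6 libraries averaged 1 RPKM or more, no DHC value reached the control values. They were Phlda1, Dusp4, Dusp6, Dusp1, Spred1 and Spred2, lower by between 1.61- and 4.93-fold in mean RPKM. The other 4, Dusp2, Dusp5, Spry2 and Spry4, lay below that filter on low values. Dusp1 averaged 0.979 RPKM in DHC and 2.15 RPKM in control libraries, so it passed the filter only through the control libraries and its lower DHC values follow in part from that. Groups that did not overlap, with DHC lower, were found for 21.6% of all 10667 genes that passed the filter. Because the genes were chosen on this same contrast, nothing is read from their count against that share. At a limma adjusted p of 0.05, 18.4% of all genes tested were higher and 16.1% lower with DHC, 34.5% in all (1968 and 1717 genes, against 1284 and 2114 under scaling by trimmed means).

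**Figure D1:**
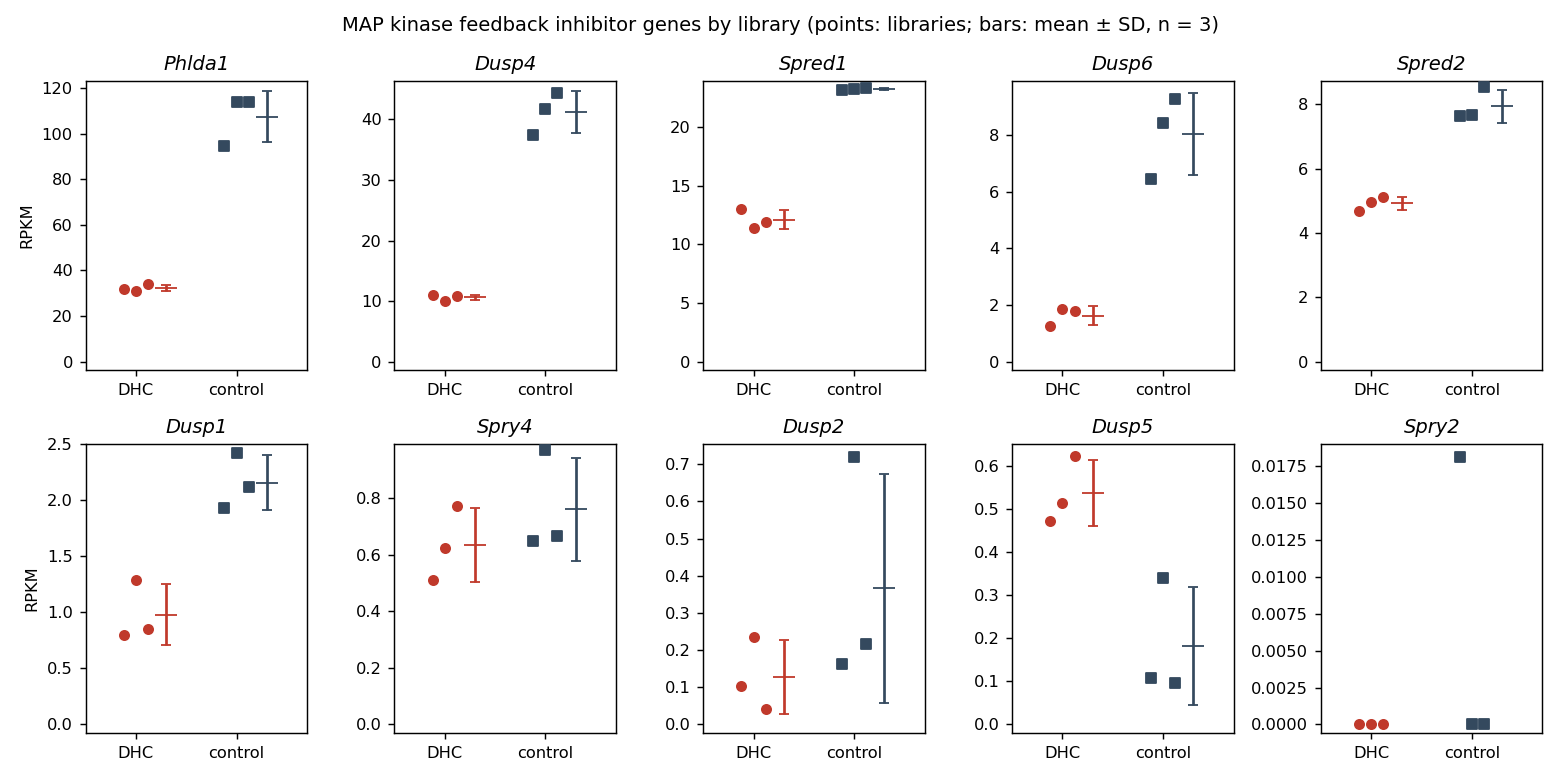
RPKM (vertical axes, linear, each panel with its own range) of the 10 genes in the 3 DHC libraries (red circles, left) and the 3 control libraries (dark squares, right), with the mean and SD beside the points except for Spry2, which had 1 read in all. In the 6 panels from Phlda1 to Dusp1 every DHC value lies below every control value, Spry4 and Dusp2 overlap, and Dusp5 is higher in every DHC library.

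Among the phosphatases, Dusp4, which encodes a nuclear MAP kinase phosphatase, was by far the most expressed. It stood at 11.0, 10.1 and 10.8 RPKM in the DHC libraries, against 37.5, 41.7 and 44.3 RPKM in the control libraries. The DHC libraries lay close together and all well below the lowest control. The ratio of means was 3.87-fold, and the log2 fold change on the log2(RPKM + 1) scale was −1.86 ± 0.07 (SE). Dusp4 spans chromosome 16, 61078175 to 61091169, on the build Rnor_6.0 used for the counts, with 3976 bases of exon. Of all genes tested, 0.131% had a more negative value. That share was 0.197% for Dusp6, 0.253% for Phlda1, 2.58% for Spred1, 4.65% for Dusp1 and 5.75% for Spred2. Nothing is read from these ranks, since the genes were chosen on this contrast.

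Dusp6 encodes the cytoplasmic phosphatase that is selective for ERK. It was at 1.25, 1.84 and 1.79 RPKM in the DHC libraries, against 6.43, 8.43 and 9.24 RPKM in the control libraries. In reads this was 102, 159 and 144 in DHC and 541, 675 and 870 in control libraries. The difference was 4.93-fold in mean RPKM, the steepest of the group by that measure, and −1.78 ± 0.15 on the log2(RPKM + 1) scale, where the pseudocount compresses it. Dusp6 lies on chromosome 7, 41475163 to 41479392.

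Dusp1 encodes an immediate early phosphatase that acts on p38 and JNK as well as ERK. It was at the low end, with 0.801, 1.29 and 0.849 RPKM in the DHC libraries and 1.93, 2.42 and 2.12 RPKM in the control libraries. DHC replicate 2 came nearest to the controls without reaching them. The log2 fold change was −0.68 ± 0.14, and −1.15 with limma-voom on the recovered reads, a scale with no pseudocount of 1, which is the value nearer to the 2.20-fold ratio of means. Dusp1 lies on chromosome 10, 16970626 to 16973418.

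Phlda1 was the most abundant transcript of the group. It was at 31.7, 31.1 and 33.9 RPKM in the DHC libraries, against 94.5, 114 and 114 RPKM in the control libraries. Control replicate 1 was below the other controls, as it was for Dusp4 and Dusp6, and still well above all DHC libraries. The difference was 3.33-fold, with a log2 fold change of −1.70 ± 0.08. Phlda1 lies on chromosome 7, 54247460 to 54249664, with 1811 bases of exon.

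The SPRED genes encode membrane proteins that bring neurofibromin to RAS and so lower its activity. Spred1 was at 13.0, 11.4 and 11.9 RPKM in the DHC libraries and at 23.2, 23.2 and 23.3 RPKM in the control libraries. The controls were nearly identical, and the DHC values lay together well below them, a ratio of means of 1.92-fold and a log2 fold change of −0.89 ± 0.06. Spred2 was at 4.69, 4.96 and 5.11 RPKM in the DHC libraries and at 7.63, 7.67 and 8.53 RPKM in the control libraries. Its groups also stood apart, by 1.61-fold and −0.59 ± 0.08, the mildest difference of the 6. On Rnor_6.0 Spred1 spans chromosome 3, 108795235 to 108857556, and Spred2 chromosome 14, 104191517 to 104290456. No exon of any of the 10 genes overlapped an exon of another gene in the table.

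The Sprouty genes, the other arm of feedback on RAS, were barely expressed. Spry4 had 72, 93 and 107 reads in the DHC libraries and 94, 134 and 108 reads in the control libraries, or 0.635 ± 0.131 RPKM in DHC and 0.760 ± 0.181 RPKM in control libraries (SD, n = 3 each). The groups overlapped, and the means differed by less than the spread. Spry2 had no read in 5 libraries and 1 read in control replicate 1. At these depths a count of 0 allows up to 3 reads, or between 0.0878 and 0.103 RPM (reads scaled to the library total) in a library, a limit that covers counting error only. It takes each read as independent, which was not tested, and many low counts recovered here were even numbers. If reads were counted in pairs, the limit is too low. Spry4 lies on chromosome 18, 32594958 to 32609864, and Spry2 on chromosome 15, 90172975 to 90175802.

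Dusp2, which encodes a nuclear phosphatase of activated lymphoid and myeloid cells, had 5, 12 and 2 reads in the DHC libraries and 8, 34 and 12 reads in the control libraries. These overlapped, and control replicate 2 set the control mean. Dusp5, which encodes a nuclear phosphatase selective for ERK, went the other way. It had 34, 39 and 44 reads in the DHC libraries against 8, 24 and 8 reads in the control libraries, or 0.537 ± 0.0772 RPKM in DHC and 0.182 ± 0.138 RPKM in control libraries (SD, n = 3 each). Every DHC value was above every control value, a ratio of means of 2.95-fold at a level of less than 1 RPKM. It was the only one of the 10 with higher values in all DHC libraries. Dusp2 lies on chromosome 3, 119776925 to 119779099, and Dusp5 on chromosome 1, 274245184 to 274258595.

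Summed over the 5 Dusp genes, the level was 13.6, 14.0 and 14.1 RPKM in the DHC libraries and 46.1, 53.6 and 56.0 RPKM in the control libraries. Dusp4 made up most of the sum in every library, 76.5% ± 4.22 with DHC and 79.4% ± 1.75 in control (SD, n = 3 each), and these shares overlapped. The share of Dusp6 was 11.7% ± 2.19 with DHC and 15.4% ± 1.31 in control, with no overlap between the libraries. Dusp5 took 3.86% ± 0.491 of the sum with DHC and 0.348% ± 0.251 in control. Dusp1 took 7.04% ± 1.88 with DHC and 4.16% ± 0.361 in control, and neither its shares nor those of Dusp5 overlapped. The summed level was lower with DHC and still mostly Dusp4. The 4 Spry and Spred genes summed to 18.2, 17.0 and 17.8 RPKM in the DHC libraries and to 31.5, 31.9 and 32.5 RPKM in the control libraries. Spred1 held 68.5% ± 2.56 of that with DHC and 72.8% ± 0.980 in control, with a gap of under 1 percentage point between the highest DHC and the lowest control library.

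**Figure D2:**
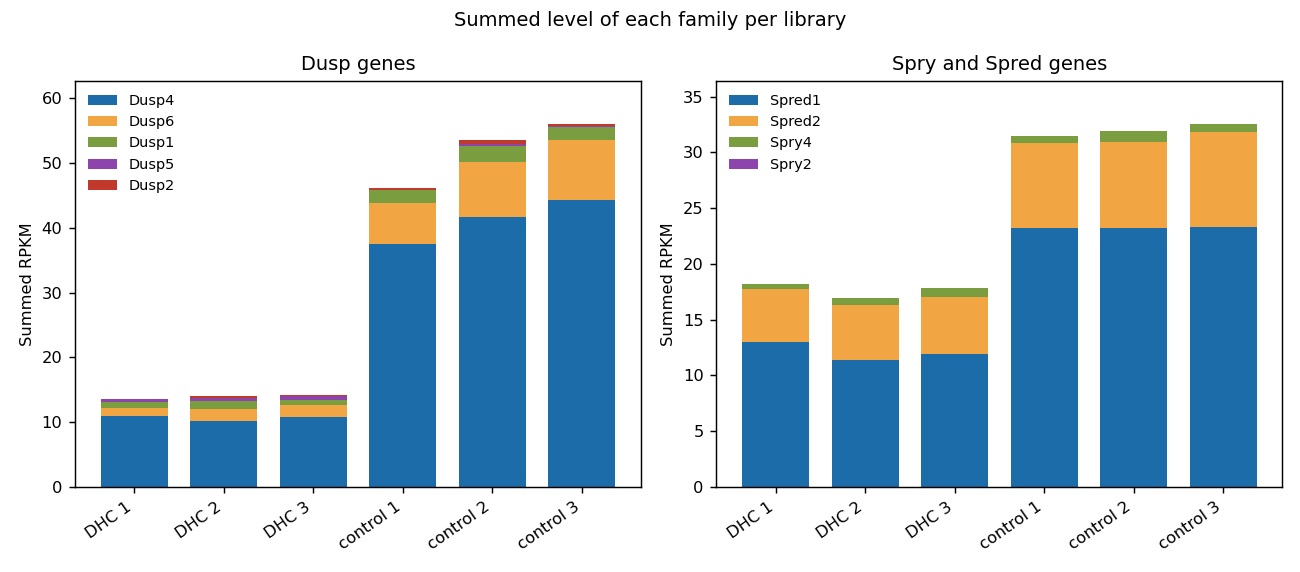
Stacked RPKM (vertical axes, from 0) of the Dusp genes (left) and of the Spry and Spred genes (right) in each library, DHC libraries first. The Dusp stack reaches 14.1 RPKM at most with DHC and 46.1 RPKM or more in control, and Dusp4 and Spred1 are the largest blocks in all 6 libraries.

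The relatives of these genes were taken from lists of MAP kinase pathway genes, also drawn up with earlier results of these data known. Of the 5 other MAP kinase phosphatase genes 4 were tested and 3 fell, or 75% beside 16.1% of all genes. The list median log2 fold change was −0.45 beside 0.05 over all genes tested. The number that fell was 4 under scaling by trimmed means or with median-of-ratios factors, and 2 without DHC replicate 2. Dusp10, which encodes a phosphatase of p38 and JNK, stood at 2.09, 1.64 and 1.43 RPKM in the DHC libraries and 4.45, 4.72 and 5.11 RPKM in the control libraries (log2 fold change −1.09 ± 0.12, limma adjusted p = 0.000432). It fell in all DHC libraries relative to all controls. Dusp16, whose product acts mainly on JNK, fell 1.46-fold (adjusted p = 0.00356), and Dusp7, an ERK phosphatase gene, 1.38-fold (0.0144). The Dusp7 call ended without DHC replicate 2 (0.0546) or without both libraries numbered 1 (0.0512). Dusp8 was at 5.56 ± 0.0112 RPKM in DHC and 6.61 ± 0.507 RPKM in control libraries (SD, n = 3 each) and did not pass (limma adjusted p = 0.071), and Dusp9 had reads in only 1 control library.

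Of 17 atypical DUSP and STYX genes, small phosphatases and pseudophosphatases mostly without a MAP kinase docking domain, 13 were in the table and 6 were tested. Dusp3, which encodes the ERK and JNK phosphatase VHR, was the only one to fall, to 5.50 ± 0.721 RPKM in DHC libraries, against 8.57 ± 0.325 RPKM in control libraries (limma adjusted p = 0.00378). The other 5 did not pass, and the list median was −0.08. The share that fell, 16.7% beside 16.1% of all genes, rests on 1 gene. Under scaling by trimmed means, median-of-ratios factors or limma-voom 2 fell. Of 23 other inhibitors of RAS and ERK signalling 13 were tested, 6 fell and 2 rose, with a median of −0.18. These were 46.2% and 15.4% of those tested, beside 16.1% lower and 18.4% higher among all genes. The 3 with the lowest p among those that fell were Rasa2, a RAS GTPase-activating protein gene (1.55-fold, adjusted p = 0.000564), Rasal3, of the same class (1.67-fold, 0.00128), and Dok1, which encodes an adaptor that recruits such proteins (1.81-fold, 0.0013). Pebp1, which encodes the RAF kinase inhibitor protein, rose to 90.2 ± 2.15 RPKM in DHC libraries, against 74.6 ± 1.91 RPKM in control libraries (adjusted p = 0.00282). Rasa3 rose 1.18-fold (0.0378), a call lost with libraries scaled by trimmed means (0.118) and in each fit without 1 library except that without DHC replicate 1. Spry1, another Sprouty gene, had reads in only 1 control library.

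**Figure D3:**
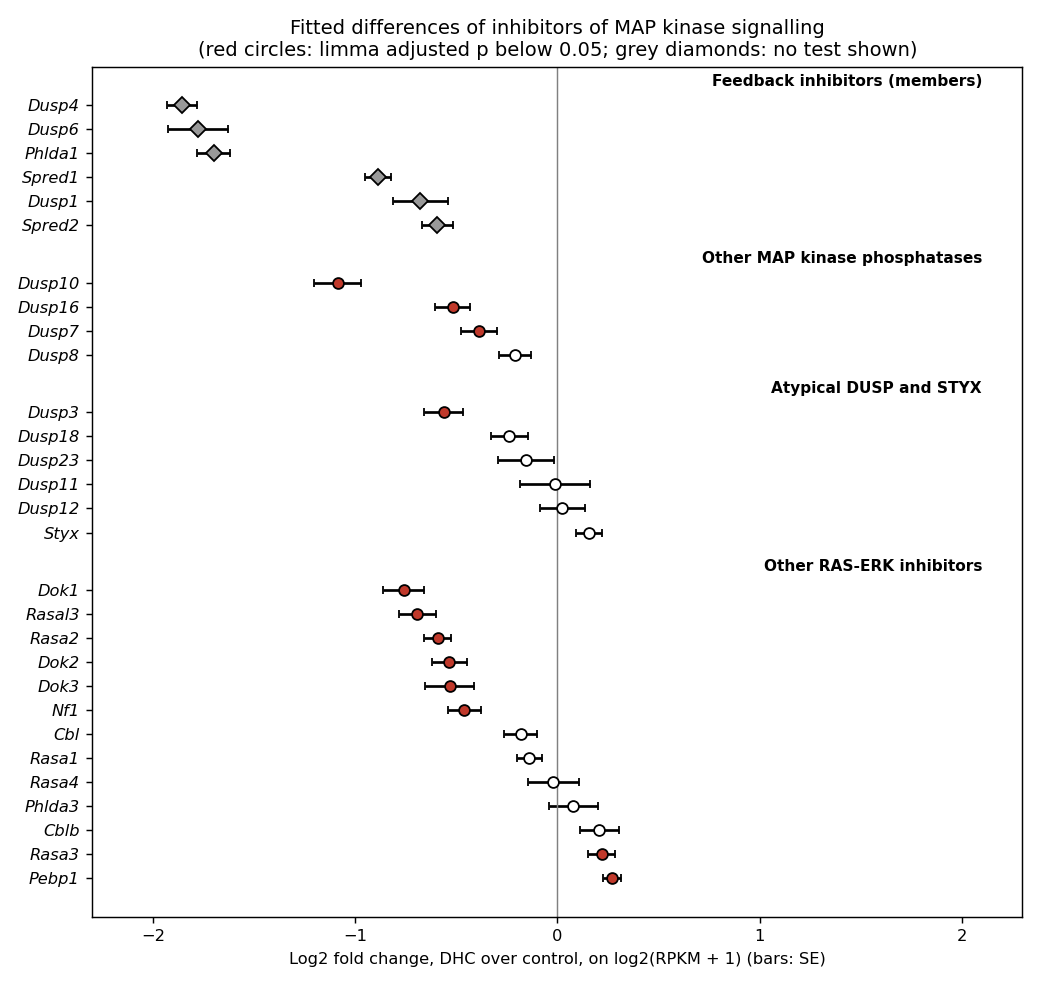
Log2 fold change of DHC over control on the log2(RPKM + 1) scale (horizontal axis, bars show the SE) for each gene of 4 lists that passed the filter, with red circles for a limma adjusted p below 0.05 and grey diamonds for the feedback inhibitors, whose differences are a description. These 6 at the top lie between −1.86 and −0.59. Of the other lists, Dusp10 (−1.09), Dok1 (−0.76) and Rasal3 (−0.69) lie within that range, and Rasa2 (−0.59) at its end.

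Genes of the cascade that these inhibitors act on were called in both directions. Of 26 genes from RAS to the kinases below ERK, 23 were tested, 8 fell and 4 rose (median −0.10). The 4 that rose were 17.4% of those tested, near the 18.4% of all genes, and the 8 that fell were 34.8%, beside 16.1% of all genes. Without 1 library, between 6 and 8 fell. At a limma adjusted p below 0.01, 3 fell and 3 rose, so the greater number of falls depended on the threshold. Among those with the lowest p-values were Gab2, an adaptor of the IgE receptor pathway that fell 1.79-fold (limma adjusted p = 9.84e-05), and Mknk2, a kinase gene downstream of ERK that rose 1.61-fold (0.00039). The other 3 that rose were Map2k1, which encodes the ERK kinase MEK1 (1.28-fold, 0.00142), the phosphatase gene Ptpn11 (1.24-fold, 0.00411) and the RAS exchange factor gene Sos1 (1.28-fold, 0.0116, but 0.0515 without both libraries numbered 1). Mapk3, the ERK1 gene, was at 12.9 ± 0.762 RPKM in DHC and 13.9 ± 1.11 RPKM in control libraries (SD, n = 3 each, limma adjusted p = 0.365). Of 25 genes of the JNK, p38 and ERK5 cascades, 17 were tested, 5 fell and 3 rose (median −0.06), or 29.4% and 17.6% of those tested. Map3k5, which encodes the stress kinase ASK1, fell 1.73-fold (0.000356), and Tab1, an activator of the kinase TAK1, 1.62-fold (0.00121). Mapkapk2, Map3k8 and Map2k7 fell as well. Map2k5, the kinase gene above ERK5, rose 1.42-fold (0.00122), and Map3k4 (1.43-fold, 0.00166) and Mapk9, the JNK2 gene (1.25-fold, 0.0155), rose too. The Mapk9 call ended without DHC replicate 2 (0.0611) or control replicate 2 (0.0559).

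Other genes that ERK signalling is known to induce were mixed in direction. Of 19 listed, 11 were tested, 5 fell (45.5%, beside 16.1% of all genes) and 3 rose (27.3%, beside 18.4%), with a median of −0.13. Of these 8, 4 passed the filter only through the group where they were high, Myc (0.673 RPKM in DHC, 7.82 RPKM in control), Fosl1, Egr3 and Egr1, so the counts follow in part from the filter. Those that fell were Myc, Junb, Lif, Ier3 and Fosl1, with Ier3, an early response gene, at 3.79 ± 0.523 RPKM in DHC and 8.23 ± 0.675 RPKM in control libraries (limma adjusted p = 0.000475). Fosl1, an AP-1 subunit gene, was at 0.365, 0.768 and 0.577 RPKM in the DHC libraries and 1.65, 2.00 and 2.64 RPKM in the control libraries (0.00348). Those that rose were the transcription factor genes Fosb, Egr3 and Egr1. Egr3 was at 1.97, 1.76 and 2.23 RPKM in the DHC libraries and 0.472, 0.471 and 0.271 RPKM in the control libraries (0.000755). Fosb was at 5.18, 5.94 and 6.78 RPKM in the DHC libraries and 1.17, 0.956 and 1.25 RPKM in the control libraries (5.89e-05). It was well above the level of Dusp5, and Egr3 and Egr1 were lower than Fosb. None of the 3 genes that rose reached a mean of 5 RPKM over the 6 libraries. The Egr1 rise (0.02) ended without DHC replicate 2 (0.0756), DHC replicate 3 (0.0509), control replicate 2 (0.0642) or control replicate 3 (0.0602). Of the genes commonly read with Dusp4, Dusp6, Spry2, Spry4 and Phlda1 as an ERK signature, Ccnd1, Epha2, Epha4, Etv4 and Etv5 were all below the filter, at 0.369 RPKM or less in every library.

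**Figure D4:**
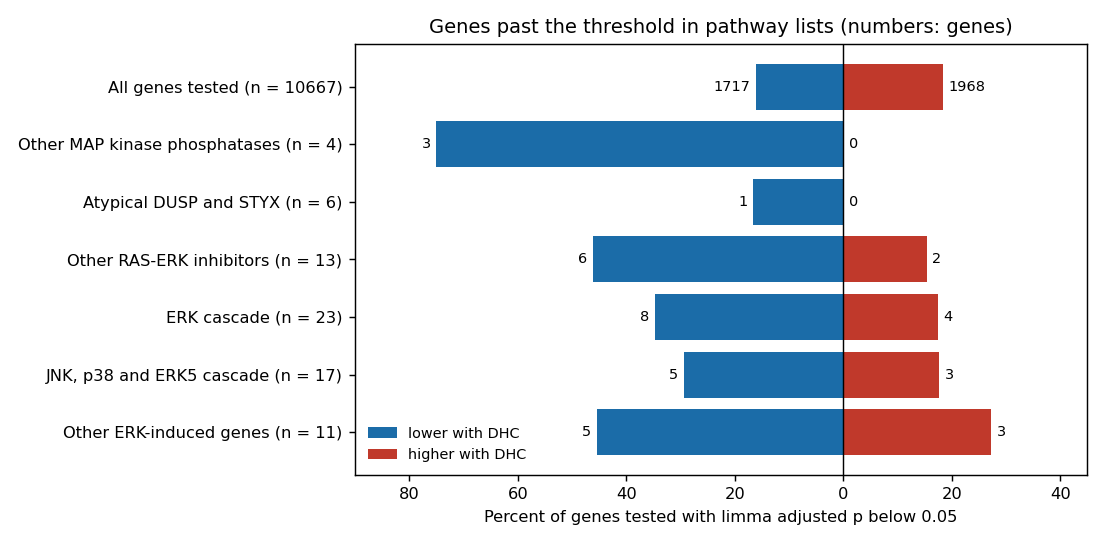
Share of tested genes (horizontal axis, percent) that were lower (blue, left) or higher (red, right) with DHC at a limma adjusted p below 0.05, for 6 pathway lists and all 10667 genes tested. The numbers beside the bars count genes, and each list apart from the 2 shorter phosphatase lists has genes on both sides.

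Across the 6 libraries the 6 genes of the group above the filter followed each other closely, which mostly restates the gap between the groups. The nearest member to Dusp4 was Phlda1 (Pearson r of 0.998 over 6 libraries of log2(RPKM + 1)), and Dusp6 and Spred2 were nearest to each other (0.992). Dusp1 was the least close, with a highest r of 0.959, to Dusp6. Among 6615 other genes that averaged 5 RPKM or more, the closest to Dusp4 was Gtpbp2, a GTP-binding protein gene, which stood at 8.22 ± 0.328 RPKM in DHC and 19.5 ± 0.915 RPKM in control libraries (SD, n = 3 each). The closest to Phlda1 was the chloride channel gene Clic1, to Dusp6 the microtubule-associated gene Map1a, to Spred1 the transcription factor gene Foxp1 and to Dusp1 Ddah2. These 5 had an r of at least 0.995. The libraries fall into the 2 groups of the design, so such values are common, and 705 of the 6615 genes had an r over 0.95 with Dusp4.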

How the data were processed

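Trizol was used to extract the RNA of RBL-2H3 cells and Illumina protocols to make the libraries, per the labels' protocols. The submitters' processing notes name Trimmomatic 0.36, featureCounts, Subread 1.5.1, edgeR 3.12.1 and, as the genome build, Rnor_6.0. Aligner, annotation release and strand setting: not given in the sources used here. The deposited table holds 1 RPKM value per gene and library. That unit was found from the values: in 100% of them, value times exon length was a whole multiple of 1 step per library within 0.01 read, and reads and library totals were recovered from it. Because the deposited unit is RPKM, a count test was not the main test.

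limma 3.58.1 (R 4.3.3) with a trended variance was fitted to log2(RPKM + 1) of the 10667 genes that averaged 1 RPKM or more over 6 libraries. Group was its single term, and p-values were adjusted by Benjamini-Hochberg over all these genes. The pseudocount makes fold changes of low genes too small, and N-fold values in the text are mean RPKM divided by mean RPKM. In simulated reads of 10664 genes, the fit recovered 77.6% of 1.5-fold changes, 96.9% of 2-fold changes and 100% of 4-fold changes. Among 194 calls 14 were of unchanged genes. The simulation gave all genes the same dispersion and no order shared by replicate number. It changed 67, 64 and 66 genes at these folds, far fewer than were called in the libraries. Its rates therefore may not hold for the libraries themselves. Replicates differed by more than sampling noise (chi-square over its degrees of freedom from 4.72 to 17.7).

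The members, lists and tests were chosen with earlier results of these data known. Named genes were the members, up to 3 genes with the lowest p of each list, all genes behind a count of 5 or fewer, and the gene nearest in pattern to each tested member. A few results under it are not reported here. Genes named beyond that rule (Dusp8, Dusp9, Spry1, Mapk3, the marker genes and the untested ERK signature genes) were picked after their values were seen. Alternatives were other pseudocounts, filters, scalings and thresholds, limma-voom, robust variances, a replicate block and leaving out libraries. Promoter sequences are RefSeq's, build GRCr8, and the files' coordinates are of Rnor_6.0.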

Additional observations from a re-analysis of the deposited data

How the results depend on the processing

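Calls of the feedback inhibitors are no evidence of stability, since the genes were chosen on this contrast. With a filter of 5 RPKM in place of 1 RPKM, Dusp1 and Dusp6 were below it. With no filter on low values, 1674 of all 18286 genes were called higher. Among them were 1 feedback inhibitor, Dusp5, and 1 atypical phosphatase gene, Dusp22. Nothing is read from the Dusp5 call, since the gene was chosen on this contrast. Under the threshold of 0.01 in place of 0.05 on the adjusted p, 873 genes were higher and 1076 lower with DHC among all genes. At that threshold 1 other RAS-ERK inhibitor was higher, and 3 ERK cascade genes were lower and 3 higher. Under scaling by trimmed means, 1284 genes were higher, 2 atypical phosphatases were lower, as with median-of-ratios factors and limma-voom, and 1 other RAS-ERK inhibitor was higher, as with median-of-ratios factors, with no filter and without both libraries numbered 1. With the filter of 5 RPKM, 0 of the other ERK-induced genes were higher and 3 lower, because fewer were tested. The cause of the other changes was not tested. Without 1 library each, between 1201 and 1746 genes were higher (1201 without DHC replicate 2) and between 1275 and 1609 lower, other RAS-ERK inhibitors numbered 1 to 2 higher, and the difference in library totals ran from −2307413 to 235560 reads, positive without control replicate 3. The share of Dusp4 among the Dusp genes, −2.92 percentage points in DHC relative to control, ran from −5.01 without DHC replicate 1 to −0.785 without DHC replicate 2.

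Deviations of same-numbered libraries from their group means correlated at 0.228, −0.0495 and 0.0828 for numbers 1, 2 and 3. The main fit did not take the numbers as pairs, although an order shared by number was visible. Component 2 of a principal component analysis held 12.8% of the variance. Its scores for numbers 1 to 3 were 11.5, −2.15 and −8.35 in DHC and 12.1, −2.49 and −10.7 in control libraries. What this order stems from was not tested. With the replicate block, 2426 genes were higher and 1907 lower, against 1968 and 1717 in the main fit. Not every library correlated best with its own number. Depth limits what can be said of Dusp2, Dusp5, Spry2 and Spry4, which had at most 134 reads in a library.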

Other observations

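A pair of atypical phosphatase genes below the filter resembled Dusp5 and were noticed after their values were seen. Dusp22, which encodes a phosphatase that modulates JNK signalling, had 14, 18 and 18 reads in the DHC libraries and 4, 8 and 3 reads in the control libraries, or 0.479 ± 0.0644 RPKM in DHC and 0.142 ± 0.0847 RPKM in control libraries (SD, n = 3 each). In the fit with no filter on low values, the only one that tested it, its limma adjusted p was 0.0157. Dusp14 had 34, 77 and 73 reads in the DHC libraries and 14, 29 and 34 reads in the control libraries, and did not pass in that fit (limma adjusted p = 0.0997). Its RPKM values were 0.761, 1.63 and 1.66 in DHC libraries and 0.304, 0.662 and 0.661 in control libraries, with no overlap. Both genes rest on under 100 reads in each library, and Dusp22 on at most 18. Most Dusp22 counts were even. If reads were counted in pairs, its independent counts are fewer still. Because the gene was picked after its values were seen, nothing is read from its adjusted p.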
